A study of Mus musculus with 12 samples.

Results

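The mRNAs of the IκB family and of the A20 feedback loop were followed through LPS stimulation in thioglycollate-elicited PECs, the inflammatory cells, mostly macrophages, that gather in the peritoneal cavity after an irritant. The 10 genes were chosen by name among the 12850 listed in the series. They are the classical IκB genes *Nfkbia*, *Nfkbib* and *Nfkbie*, the nuclear IκB genes *Nfkbiz*, *Nfkbid* and *Bcl3*, the A20 gene *Tnfaip3* and the genes of its ABIN partners, *Tnip1*, *Tnip2* and *Tnip3*. All 10 were listed. The filter was at least 1 CPM (reads scaled by an effective library size) in at least 2 libraries. All 10 passed it, and it left 11885 genes to test. The cells came from C57BL/6 mice that were WT or carried S513A on both alleles of *Zc3h12a* (*Zc3h12a*S513A/S513A, here S513A), a CRISPR-made knock-in changing a single residue of the RNase Regnase-1 in every cell of the body. They were taken without LPS (0 hr) or after 4 or 8 hr in 100 ng/ml of LPS, a glycolipid of the outer wall of bacteria. Each of the 6 groups had 2 libraries of poly(A) RNA, 12 in all. The labels do not say whether the 2 libraries of a group came from separate mice, so p values here measure only the spread between these libraries, which may be technical.

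LPS signals through its receptor and adaptor proteins to the IKK complex, which marks the classical IκB proteins for destruction and so frees NF-κB to enter the nucleus. NF-κB then switches on the genes of its own inhibitors. IκBα and its relatives are made anew and pull NF-κB back out of the nucleus, while A20, a ubiquitin-editing enzyme held on ubiquitin chains by the ABIN proteins, damps the signal above IKK. The nuclear IκB proteins act on chromatin instead, where they bind NF-κB dimers and raise or lower the transcription of chosen target genes. In macrophages this circuit sets how long the inflammatory response lasts.

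NF-κB recognizes a short DNA motif, and stretches of promoter holding a match to the 10-base NF-κB consensus are printed here because the genes that hold them are the ones followed below. The RefSeq table (GRCm38.p6) has windows from 250 bases before to 50 bases after an annotated start for 9 of the 10 genes, not for *Nfkbiz*. Both strands were searched, and overlapping matches were joined into 1 stretch. A match was found for 7 of these 9 genes, in 7 of their 12 windows, and none for *Nfkbib* or *Tnip2*. Of all 32851 windows 4.51% held a match, and of the 9345 tested genes with a window 6.22% had at least 1. Genes with more windows had more chances, and a match in the letters is a description, not a measured binding site. The stretches are given on the strand of the gene with 18 bases on either side, and the capitals mark the match.

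Nfkbia: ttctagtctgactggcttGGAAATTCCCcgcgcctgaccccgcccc
Nfkbie: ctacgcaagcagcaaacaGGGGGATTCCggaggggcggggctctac
Nfkbid, first stretch: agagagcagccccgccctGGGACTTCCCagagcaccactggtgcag
Nfkbid, second stretch: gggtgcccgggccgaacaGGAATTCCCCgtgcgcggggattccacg
Bcl3: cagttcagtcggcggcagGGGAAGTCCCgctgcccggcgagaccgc
Tnfaip3, first stretch: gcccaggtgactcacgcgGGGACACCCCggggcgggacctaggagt
Tnfaip3, second stretch: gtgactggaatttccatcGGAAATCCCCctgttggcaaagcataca
Tnip1: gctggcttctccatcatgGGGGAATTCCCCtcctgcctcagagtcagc
Tnip3: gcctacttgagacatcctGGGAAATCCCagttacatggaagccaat

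The *Nfkbia* stretch lies at chr12:55492649-55492694 on the minus strand, with the match beginning at position -29 from the start. The *Nfkbie* stretch lies at chr17:45555576-45555621 on the plus strand with the match from -106. Both *Nfkbid* stretches belong to the same window, at chr7:30422162-30422207 and chr7:30422207-30422252 on the plus strand, with matches from -226 and -181. The *Bcl3* match begins at base 3 counted from the start as 1, and its stretch lies at chr7:19822726-19822771 on the minus strand. The *Tnfaip3* stretches lie at chr10:19015508-19015553 and chr10:19015395-19015440 on the minus strand with matches from -125 and -12. The *Tnip1* match, 12 bases long because matches on the 2 strands overlap, begins at -58 in chr11:54962969-54963016 on the minus strand. The *Tnip3* match begins at -54 in chr6:65590326-65590371 on the plus strand. Positions count from the RefSeq start of each window, which can differ from the start of the GENCODE span given below. For *Tnip3* the RefSeq gene starts at 65590398 and the GENCODE span at 65525313. *Nfkbid* and *Tnfaip3* also had windows without a match.

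Reads on the listed genes numbered from 9525979 to 12439960 per library, with a median of 11137241, and the least read member in any library, *Nfkbiz*, still had 126 reads. Over the 8353 genes averaging 3 log2 CPM or more, the SD of the difference between the 2 libraries of a group ran from 0.16 (S513A at 0 hr) to 0.40 (WT at 4 hr). All 7 macrophage markers were listed in the series, and their summed level was 16165 to 26353 CPM in every library. None of the 4 T cell markers was listed, the 4 B cell markers summed to 3.44 to 8.87 CPM, the 3 listed of 4 mast cell markers to 1.45 to 3.20 CPM and the 3 mesothelial markers to 0.487 to 2.26 CPM. Of the 6 neutrophil markers only *S100a8* was listed, at 20.2 to 54.1 CPM at 0 hr, 43.6 to 106 CPM at 4 hr and 31.8 to 99.0 CPM at 8 hr. Of the 3 eosinophil markers only *Siglecf* was listed, and it moved with time in LPS, from 15.2 to 18.3 CPM at 0 hr through 7.96 to 9.69 CPM at 4 hr to 2.98 to 4.32 CPM at 8 hr. The resident peritoneal macrophage markers *Gata6* and *Timd4* also moved with time, with sums of 9.30 to 15.8, 14.4 to 28.3 and 19.8 to 40.4 CPM at 0, 4 and 8 hr. The part of these cells in the results on the 10 genes was not tested, and in such bulk RNA fewer cells of a type and less RNA per cell cannot be told apart.

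After 4 hr of LPS, 9 of the 10 genes were higher than at 0 hr and none was lower. The exception was *Tnip2*. Changes were tested with limma over both genotypes together, 4 libraries against 4, with p values adjusted over all 11885 genes and a threshold of 0.05. Of all genes tested, 29.1% were called higher and 26.7% lower in the same comparison. The median log2 fold change of the 10 genes was 2.21, beside 0.02 over all genes tested. For the same 9 genes, all 4 libraries at 4 hr lay above all 4 libraries at 0 hr, as they did for 25.7% of all genes tested.

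**Figure D1:**
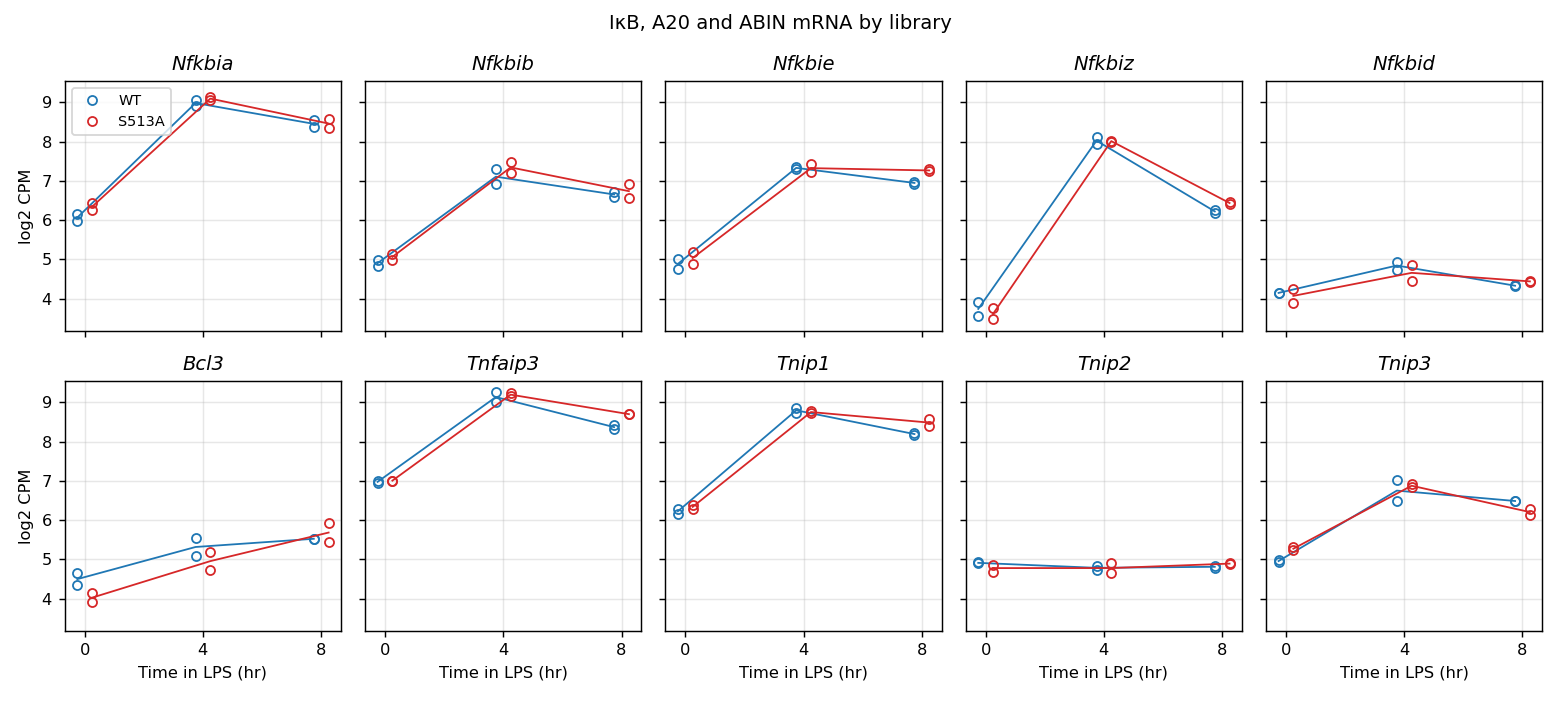
The level (log2 CPM) of each of the 10 genes is plotted against time in LPS (hr). Open circles are single libraries, 2 per genotype and time, set slightly apart by genotype, and lines join the mean of each genotype. The circles rise from 0 to 4 hr for every gene but *Tnip2*, and the WT and S513A lines stay close throughout.

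*Nfkbia* (chr12:55489410-55492647, from the GENCODE annotation of GRCm38, as for the genes below) encodes IκBα, the inhibitor that is destroyed and remade fastest in this circuit. In the 2 WT libraries its level was 6.16 and 5.97 log2 CPM at 0 hr, 9.07 and 8.90 at 4 hr then 8.36 and 8.54 at 8 hr. In S513A it was 6.25 and 6.43, then 9.05 and 9.14, then 8.35 and 8.57. The 3 times did not overlap. The rise to 4 hr was 2.84 ± 0.09 on the log2 scale (SE), 7.14-fold (adjusted p = 1.17e-09), and the level then fell by 0.58 ± 0.09 between 4 and 8 hr (adjusted p = 0.000994).

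*Nfkbib* (chr7:28758251-28767512) encodes IκBβ, which is degraded and replaced more slowly than IκBα. Its WT levels were 4.98 and 4.83 log2 CPM at 0 hr, 7.29 and 6.92 at 4 hr then 6.58 and 6.73 at 8 hr. Its S513A levels were 4.996 and 5.13, then 7.20 and 7.48, then 6.55 and 6.93. The gene was 4.73-fold higher at 4 hr (log2 fold change 2.24 ± 0.12, adjusted p = 4.95e-08), and then fell by 0.53 ± 0.12 (adjusted p = 0.00752), although the libraries of the 2 times overlapped at their edges. Its exons share 314 bases with *Ccer2*, which is not in the table, and 42 bases with *Sirt2*, both on the other strand, and reads were mapped without strand.

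*Nfkbie* (chr17:45555703-45563169) encodes IκBε, a late-acting inhibitor. It stood at 5.02 and 4.75 log2 CPM in WT at 0 hr, 7.31 and 7.36 at 4 hr then 6.92 and 6.98 at 8 hr. The S513A libraries gave 4.89 and 5.18, then 7.42 and 7.23, then 7.29 and 7.24. It was 5.16-fold above 0 hr at 4 hr (adjusted p = 5.34e-09) and 4.42-fold above it at 8 hr (adjusted p = 1.59e-08). Its log2 difference between 8 and 4 hr, -0.22 with a 95% confidence interval of -0.43 to -0.02, did not pass (adjusted p = 0.109), and the libraries of the 2 times overlapped.

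Among the 3 classical IκB genes *Nfkbia* was the most abundant for its length in every library. Levels were divided by the length of the longest principal transcript of each gene, which gave CPM per kb. *Nfkbia* made up 61.2 to 63.6% of the summed CPM per kb of the 3 genes at 0 hr, 70.3 to 70.7% at 4 hr and 65.3 to 69.6% at 8 hr. The share of *Nfkbib* was 19.7 to 21.3% at 0 hr and 13.8 to 17.1% at 4 hr, and that of *Nfkbie* was 16.0 to 18.0% and 12.2 to 15.7%. The ranges of *Nfkbia* did not overlap between any 2 times.

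*Nfkbiz* (chr16:55811375-55838899) encodes IκBζ, a nuclear coactivator of secondary response genes such as *Il6*. It showed the largest change of the 10 genes in both directions. Its WT levels went from 3.93 and 3.55 log2 CPM at 0 hr to 7.94 and 8.12 at 4 hr and back to 6.26 and 6.19 at 8 hr. Its S513A levels went from 3.47 and 3.75 to 8.03 and 8.00 and back to 6.45 and 6.42. These 3 sets of libraries were far apart. The rise was 20.3-fold at 4 hr (4.34 ± 0.10 on the log2 scale, adjusted p = 1.46e-10), which ranked the gene 119th of 11885. At 8 hr it was 6.29-fold above 0 hr (adjusted p = 5.61e-09), having fallen by 1.69 ± 0.10 since 4 hr (adjusted p = 4.83e-06).

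*Nfkbid* (chr7:30421732-30428746) encodes IκBNS, a nuclear IκB protein that restrains some NF-κB targets and helps others. Its changes were small. The WT levels were 4.15 and 4.14 log2 CPM at 0 hr, 4.74 and 4.95 at 4 hr then 4.34 and 4.32 at 8 hr, and the S513A levels were 4.25 and 3.90, then 4.86 and 4.46, then 4.43 and 4.45. The gene was 1.56-fold higher at 4 hr (adjusted p = 0.000634). It fell by 0.37 ± 0.11 on the log2 scale between 4 and 8 hr (adjusted p = 0.0368), a call that was lost with a prior without a trend (adjusted p = 0.0532), with only the libraries compared (adjusted p = 0.0620) and in 8 of the 12 fits leaving out a library. The latter were the fits without either WT library at 0 hr, either WT library at 8 hr, either S513A library at 8 hr, WT at 4 hr replicate 2 or S513A at 4 hr replicate 1, and adjusted p values over the 12 ran from 0.0173 to 0.119. At 8 hr its 4 libraries still lay above the 4 at 0 hr, but the log2 fold change of 0.28 (95% confidence interval 0.03 to 0.53) did not pass (adjusted p = 0.0691). That placing rests on the effective library sizes. Before scaling, its reads were 229 to 255 at 0 hr and 209 to 213 at 8 hr in WT. In S513A they were 177 to 216 and 202 to 249.

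*Bcl3* (chr7:19808462-19822770) encodes a nuclear IκB protein that stabilizes homodimers of NF-κB on DNA. It was the only one of the 10 genes whose mean log2 level rose from 4 to 8 hr by a change that passed the test. In WT it was at 4.65 and 4.35 log2 CPM at 0 hr, 5.10 and 5.54 at 4 hr then 5.53 and 5.52 at 8 hr. In S513A it was at 3.91 and 4.14, then 5.19 and 4.72, then 5.92 and 5.45. All libraries in LPS lay above all those at 0 hr, and those at 4 and 8 hr overlapped. The log2 fold change against 0 hr was 0.87 ± 0.15 at 4 hr (1.83-fold, adjusted p = 0.000551) and 1.34 ± 0.15 at 8 hr (2.54-fold, adjusted p = 3.03e-05).

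The further rise of *Bcl3* between 4 and 8 hr, 0.47 ± 0.15 on the log2 scale, passed narrowly (adjusted p = 0.0438). Taken by genotype, it was 0.73 ± 0.21 in S513A (adjusted p = 0.0404) and 0.21 ± 0.21 in WT (adjusted p = 0.551), and the difference between these was not tested. It no longer passed with a prior without a trend, with only the libraries compared, or in 9 of the 12 fits leaving out a library. It did pass without WT at 4 hr replicate 2, S513A at 4 hr replicate 1 or S513A at 8 hr replicate 2, and the adjusted p values over the 12 ran from 0.0187 to 0.151. *Bcl3* shares 161 exonic bases with *Gm16175*, an antisense gene that is not in the table, whose reads cannot be told apart without strand. Within the nuclear IκB genes the make-up by CPM per kb swung with time: *Nfkbiz* made up 12.6 to 16.3% at 0 hr, 62.6 to 71.3% at 4 hr and 33.0 to 37.7% at 8 hr, while *Bcl3* made up 40.4 to 52.1%, 16.4 to 23.4% and 42.8 to 50.7%.

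*Tnfaip3* (chr10:19000910-19015657) encodes A20 itself. Its level was already high at 0 hr, at 6.96 and 7.00 log2 CPM in WT and 7.01 and 7.01 in S513A. It reached 9.02 and 9.25 in WT and 9.24 and 9.15 in S513A at 4 hr, and stood at 8.32 and 8.42 in WT and 8.71 and 8.69 in S513A at 8 hr. No library of one time overlapped with another time. It was 4.52-fold higher at 4 hr (log2 fold change 2.18 ± 0.07, adjusted p = 1.91e-09), then fell by 0.63 ± 0.07 (adjusted p = 0.000189), and at 8 hr was 2.92-fold above 0 hr (adjusted p = 3.63e-08).

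*Tnip1* (chr11:54910785-54962917), whose product binds A20 and ubiquitin chains, followed the same course. Its WT levels were 6.30 and 6.16 log2 CPM at 0 hr, 8.73 and 8.87 at 4 hr then 8.16 and 8.23 at 8 hr. Its S513A levels were 6.28 and 6.40, then 8.78 and 8.72, then 8.57 and 8.41. The libraries of the 3 times did not overlap. It rose 5.63-fold to 4 hr (2.49 ± 0.08 on the log2 scale, adjusted p = 8.21e-10) and then fell by 0.44 ± 0.08 (adjusted p = 0.0019).

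*Tnip3* (chr6:65525313-65634040), the third ABIN gene, started lower. It stood at 4.98 and 4.93 log2 CPM in WT at 0 hr, 7.01 and 6.49 at 4 hr then 6.49 and 6.49 at 8 hr, and in S513A at 5.23 and 5.31, then 6.84 and 6.92, then 6.13 and 6.28. All 4 libraries at 8 hr lay below all 4 at 4 hr, but the lowest at 4 hr and the highest at 8 hr were the same at 2 decimals. It rose 3.25-fold to 4 hr (1.70 ± 0.11 on the log2 scale, adjusted p = 2e-07) and fell by 0.47 ± 0.11 afterwards (adjusted p = 0.00854).

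*Tnip2* (chr5:34496087-34513991), whose product also holds the kinase TPL2, stayed within a narrow band. Its WT levels were 4.90 and 4.93 log2 CPM at 0 hr, 4.73 and 4.84 at 4 hr then 4.78 and 4.85 at 8 hr, and its S513A levels were 4.87 and 4.69, then 4.91 and 4.65, then 4.90 and 4.89. The libraries of the 3 times overlapped. Its log2 fold change was -0.06 at 4 hr (95% confidence interval -0.25 to 0.13, adjusted p = 0.564) and 0.01 at 8 hr (-0.18 to 0.20, adjusted p = 0.956), a value whose sign turned under other scalings of the libraries. This course rests on the effective library sizes. Before scaling, the reads of *Tnip2* were 395 to 428 at 0 hr and 301 to 312 at 4 hr in WT. In S513A they were 308 to 332 and 216 to 305. With *Tnip1* and *Tnip3* higher and *Tnip2* near its starting level, *Tnip2* was 25.1 to 32.3% of their summed CPM per kb at 0 hr and 6.77 to 7.81% at 4 hr, while *Tnip1* went from 50.6 to 54.6% to between 75.0 and 80.4%.

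**Figure D2:**
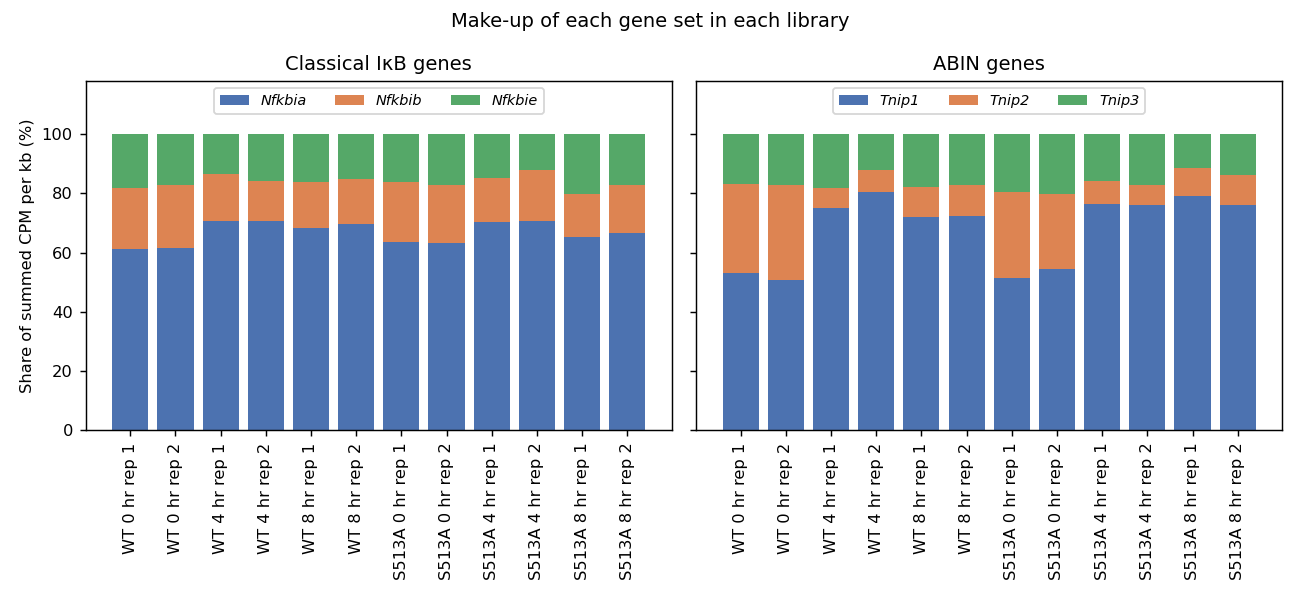
Stacked bars show the share (%) of the summed CPM per kb taken by each gene in each of the 12 libraries, for the classical IκB genes (left) and the ABIN genes (right). *Nfkbia* takes over 60% of the left bars in every library, and the *Tnip2* segment of the right bars shrinks in every library in LPS.

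At 8 hr, 8 of the 10 genes were still called higher than at 0 hr and none lower, beside 24.5% of all genes tested called higher and 21.6% lower. *Nfkbid* and *Tnip2* were the 2 that did not pass. The median log2 fold change of the 10 was 1.63, beside 0.00 over all genes. Against 4 hr, 7 genes were lower at 8 hr and 1, *Bcl3*, was higher, beside 12.8% of all genes tested called lower and 12.8% higher. *Nfkbie* and *Tnip2* did not pass. Taken by genotype, *Nfkbia*, *Nfkbiz* and *Tnfaip3* were called lower in both. *Tnip1* passed only in WT, *Nfkbib* and *Tnip3* only in S513A, and *Nfkbid* in neither. The difference between genotypes in this change was not tested. All 4 libraries at 8 hr lay below all 4 at 4 hr for 6 genes, namely *Nfkbia*, *Nfkbiz*, *Nfkbid*, *Tnfaip3*, *Tnip1* and *Tnip3*, beside 11.7% of all genes tested.

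**Figure D3:**
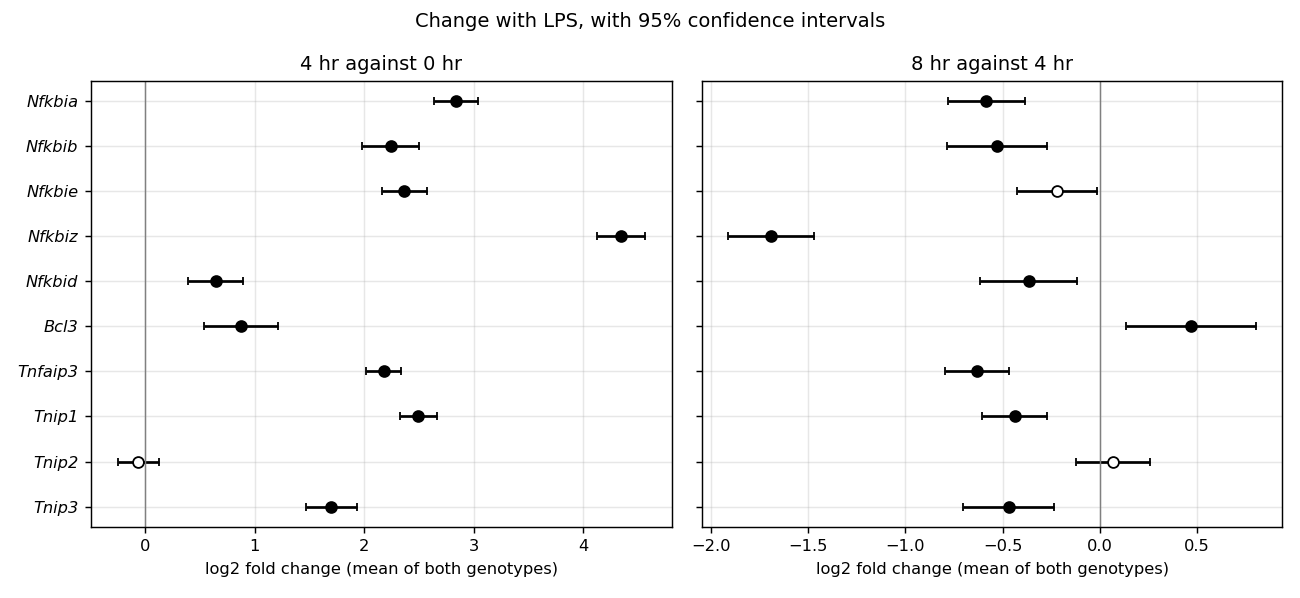
Log2 fold changes of the 10 genes, averaged over both genotypes, are plotted for 4 hr against 0 hr (left) and 8 hr against 4 hr (right). Bars are 95% confidence intervals, filled points passed an adjusted p of 0.05 and open points did not. *Nfkbiz* lies farthest out on both sides, at 4.34 and -1.69, and *Bcl3* is the only filled point right of zero in the right plot.

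The order of the genes by CPM per kb changed with LPS. At 0 hr *Nfkbia* led with a median of 46.8 CPM per kb, apart from *Tnfaip3* at 29.0 and *Tnip1* at 26.3, which overlapped. *Nfkbib* (15.4), *Tnip2* (14.9), *Nfkbie* (12.8), *Bcl3* (10.3), *Tnip3* (9.19) and *Nfkbid* (8.70) formed a run in which each overlapped with the next. *Nfkbiz* was last at 3.06 CPM per kb, apart from the rest. At 4 hr *Nfkbia* (338), *Tnip1* (146) and *Tnfaip3* (133) were each apart from the next, *Nfkbiz* at 62.8 had come within the range of *Nfkbie* at 66.2, and *Tnip2* (13.9) and *Nfkbid* (13.7) were last and overlapped. At 8 hr *Nfkbia* (223), *Tnip1* (108) and *Tnfaip3* (85.5) still led, and *Bcl3* (24.9), *Tnip3* (22.2) and *Nfkbiz* (19.7) formed a run in which each overlapped with the next.

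Among 35 other genes of the pathway, listed with earlier results of these data known, 23 were higher and 3 lower at 4 hr. At 8 hr 20 were higher and 4 lower, and at 8 hr against 4 hr 1 was higher and 15 lower. Of all genes tested, 29.1% were called higher and 26.7% lower at 4 hr, and 24.5% and 21.6% at 8 hr. At 8 hr against 4 hr the shares were 12.8% and 12.8%. All 5 NF-κB subunit genes, whose products the IκB proteins hold, rose at 4 hr (median log2 fold change 2.22) and were still up at 8 hr (median 1.22). *Nfkb2* was 8.81-fold and *Nfkb1* 6.84-fold higher at 4 hr, and 4 of the 5 then fell, *Nfkb1* by 1.18 on the log2 scale. All 5 genes of IKK and its related kinases were higher at 4 hr, with *Ikbke* 2.98-fold and *Tbk1* 2.03-fold up.

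Of 12 upstream adaptors and kinases, 7 were higher and 2 lower at 4 hr, beside 29.1% and 26.7% of all genes tested. *Irak3*, an inhibitory kinase-like protein, rose 5.87-fold and *Myd88*, the main LPS adaptor, 3.19-fold. Of 3 partners of A20, only *Rnf11* was called higher (2.30-fold), and 1 of 3 is near the share of all genes. This holds also for the linear ubiquitin ligase and other deubiquitinase genes below. Of the 3 linear ubiquitin ligase genes, whose chains A20 and the ABIN proteins bind, *Rnf31* was 2.70-fold higher and the others did not pass, and of 3 other deubiquitinase genes *Cyld* was 1.44-fold higher and *Otud7b* fell by 0.32 on the log2 scale. Of the 2 genes of βTRCP, which hands phosphorylated IκB proteins to the proteasome, *Fbxw11* was 1.59-fold higher, and the log2 fold change of *Btrc* was -0.03. *Nfkbil1*, an ankyrin gene related to the IκB family by sequence, was 3.58-fold higher. *Zc3h12a* itself was 6.96-fold higher at 4 hr and fell by 1.02 on the log2 scale from 4 to 8 hr. A count over the gene does not show the point mutation.

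The comparison of S513A with WT asks whether a Regnase-1 that lacks this phosphorylation site changes the level of the feedback mRNAs. With limma, none of the 10 genes was called different between S513A and WT at 0 hr, 4 hr or 8 hr, or averaged over the 3 times. The shares of all genes tested that were called were 0.0337%, 0.0168%, 0.0337% and 0.0673%. The number of the 10 with an unadjusted p under 0.05 was 0, 0, 3 and 1, beside 7.98%, 7.01%, 12.5% and 6.71% of all genes tested, and voom weights also called 0 in each. The log2 differences, S513A minus WT, ran from -0.47 to 0.31 at 0 hr, from -0.36 to 0.24 at 4 hr and from -0.28 to 0.33 at 8 hr. The 95% confidence intervals of the 10 genes, with 2 libraries against 2, reached from -0.95 to 0.65 at 0 hr, -0.83 to 0.60 at 4 hr and -0.61 to 0.63 at 8 hr. Differences beyond these bounds lay outside every interval.

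**Figure D4:**
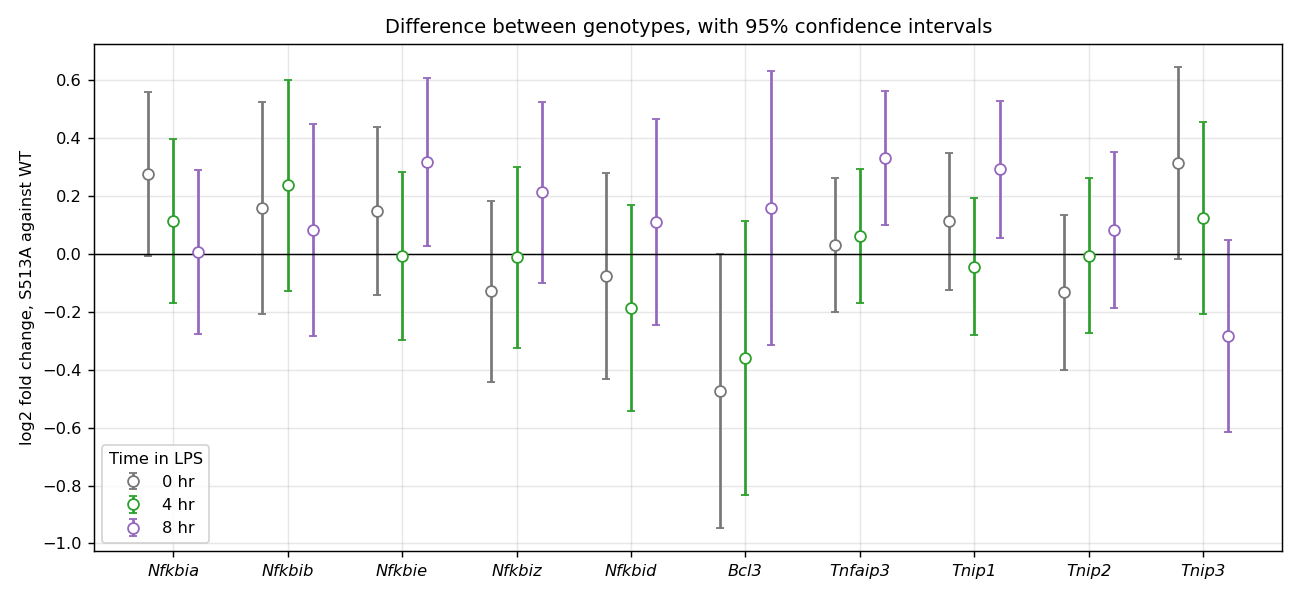
Log2 differences between S513A and WT are plotted for each of the 10 genes at 0, 4 and 8 hr in LPS, with 95% confidence intervals and 2 libraries per genotype and time. No difference passed an adjusted p of 0.05. At 8 hr the intervals of *Nfkbie*, *Tnfaip3* and *Tnip1* lie above 0 before any adjustment.

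At 0 hr and at 4 hr, the smallest p among the 10 belonged to *Bcl3*. Its S513A libraries at 0 hr (3.91 and 4.14 log2 CPM) lay below its WT libraries (4.65 and 4.35), a log2 difference of -0.47 ± 0.21 (SE, adjusted p = 0.586), and at 4 hr the difference was -0.36 ± 0.21 with overlapping libraries (adjusted p = 0.622). At 8 hr it was 0.16 ± 0.21 (adjusted p = 0.719). None of the 3 differences passed. Over the 12 fits leaving out a library, the difference at 4 hr ran from -0.59 to -0.13.

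At 8 hr the smallest p belonged to *Tnfaip3*, with S513A libraries at 8.71 and 8.69 log2 CPM and WT libraries at 8.32 and 8.42. The log2 difference was 0.33 ± 0.10 (95% confidence interval 0.10 to 0.56), and did not pass (adjusted p = 0.395). *Nfkbie* (0.32, 95% confidence interval 0.03 to 0.61) and *Tnip1* (0.29, 0.06 to 0.53) had differences of similar size, also with an adjusted p of 0.395. Averaged over the 3 times, the *Tnfaip3* difference was 0.14 ± 0.06 (adjusted p = 0.716). The S513A pair of libraries lay wholly above the WT pair for 6 of the 10 genes at 8 hr and below for 1, *Tnip3*, beside 27.9% and 25.8% of all genes tested. At 0 hr it lay above for 4 and below for 2, beside 30.4% and 27.1% of all genes. At 4 hr the libraries overlapped for all 10, while 14.3% of all genes lay above and 13.9% below. The sums of the resident macrophage markers *Gata6* and *Timd4* lay apart between genotypes, narrowly at 0 hr. They were 13.7 to 15.8 CPM in WT and 9.30 to 13.4 CPM in S513A at 0 hr. In the same order they were 26.7 to 28.3 and 14.4 to 20.8 CPM at 4 hr, and 33.4 to 40.4 and 19.8 to 20.9 CPM at 8 hr. Other marker sums also lay apart between genotypes. At 0 hr *S100a8* was lower in WT (20.2 to 35.0 CPM) than in S513A (51.0 to 54.1 CPM), as was *Siglecf* (15.2 to 16.3 and 17.2 to 18.3 CPM), while the B cell (5.30 to 7.00 and 3.44 to 4.56 CPM) and mesothelial sums (1.73 to 2.26 and 0.797 to 1.10 CPM) were higher in WT. At 4 hr the mast cell sum was lower in WT (1.45 to 2.07 and 2.15 to 3.20 CPM). At 8 hr the macrophage sum was higher in WT (22951 to 23922 and 16165 to 21683 CPM), as were the B cell sum (5.32 to 8.87 and 4.23 to 5.09 CPM), *Siglecf* (4.25 to 4.32 and 2.98 to 3.52 CPM) and the mesothelial sum (0.902 to 1.19 and 0.487 to 0.733 CPM). The mast cell and mesothelial sums rest on few reads, with 0.5 read added for each gene. The part of these cells in the differences between genotypes was not tested.

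The response to LPS was compared between genotypes by the interaction term. With limma it called none of the 10 genes at 4 or 8 hr, and 0% of all genes tested at 4 hr and 0% at 8 hr. Of the 10 genes, 0 and 1 had an unadjusted p under 0.05, beside 1.21% and 20.2% of all genes tested. The 1 was *Tnip3* at 8 hr, whose rise over 0 hr was smaller in S513A than in WT by 0.60 ± 0.21 on the log2 scale (95% confidence interval of the difference -1.06 to -0.13, adjusted p = 0.199). The largest difference the other way was that of *Bcl3* at 8 hr, 0.63 ± 0.30 (-0.04 to 1.30, adjusted p = 0.261). For *Nfkbiz*, the most responsive of the 10 genes, the term was 0.12 at 4 hr (-0.33 to 0.56, adjusted p = 1.00) and 0.34 at 8 hr (-0.10 to 0.78, adjusted p = 0.324). For *Nfkbia* it was -0.16 at 4 hr (-0.56 to 0.24) and -0.27 at 8 hr (-0.67 to 0.13).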

How the data were processed

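Poly(A) RNA libraries were sequenced on a NextSeq 500. Per the methods and processing labels, the authors mapped paired reads to mm10 with HISAT2, unstranded, and counted them with featureCounts 1.6.3. The authors deposited log2 CPM values, the log2 of reads plus 0.5 over an effective library size. That size was above the reads on the listed genes in every library at 0 hr and below them in every library at 4 hr. It was 14351670 for 12439960 reads in WT at 0 hr replicate 1 and 8606654 for 9812085 reads in S513A at 4 hr replicate 2. The program behind these values, the annotation and the listing filter are not given in the sources used here. Whole reads were recovered from the steps of the values, with a largest departure of 0.00103 read. At 3 reads the log2 CPM is -2.04 to -1.30, which covers counting error only.

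The log2 values were fitted with limma 3.58.1 in R 4.3.3, with a mean per group over 12 libraries (6 residual degrees of freedom) and a prior following the mean level. Genes with 1 CPM or more in 2 or more libraries were kept. Tests were two-sided and Benjamini-Hochberg adjusted p values were called at 0.05 over all 11885 genes. Confidence intervals are at 95%. The method was also run on simulated reads with a single spread for all genes and groups, unlike these libraries, and no result here rests on that run. Alternatives were no filter, a further pseudocount of 1 CPM, median-ratio scaling, quantile normalization, a prior without a trend, voom weights, only the libraries compared, a replicate block and each library left out. All 10 members were tested in every comparison, but not all are named in each. At most 2 genes of each other pathway list are named, those with the largest log2 fold change at 4 hr. Members, pathway lists and markers were chosen with earlier results of these data known. Promoter windows came from RefSeq (GRCm38.p6). Python 3.11.15, pandas 2.3.3 and matplotlib 3.10.9 were used for tables and plots.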

Additional observations from a re-analysis of the deposited data

Results flagged for a closer look

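The log2 difference of *Tnip3* between S513A and WT was 0.31 at 0 hr and -0.28 at 8 hr, with both S513A libraries above both WT libraries at the first time and below them at the second. The change between these times is the interaction term at 8 hr given above, which did not pass (limma, adjusted p = 0.199). *Tnip2* showed the opposite signs, with a log2 difference of -0.13 ± 0.12 (SE) at 0 hr and 0.0813 ± 0.12 at 8 hr and no overlap between genotypes at either time. Its log2 fold change from 0 to 8 hr was 0.11 in S513A, where both libraries rose above those at 0 hr, and -0.10 in WT, where both lay below, and the interaction term did not pass either (limma, 0.21, adjusted p = 0.462). These changes of sign were picked out because every library of a group lay on 1 side. Such separation was common: of all genes tested, the S513A pair lay wholly above the WT pair for 30.4% and below for 27.1% at 0 hr. At 8 hr these shares were 27.9% and 25.8%. Beyond the interaction terms and the tests at each time, which did not pass, the changes of sign were not tested.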

How the results depend on the processing

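Of the 25 changes with LPS that were called for single genes, 479 of the 500 values over the 20 alternatives kept their direction and call and 21 lost the call, all for *Bcl3* or *Nfkbid* at 8 hr against 4 hr. The number of genes higher at 8 hr than at 4 hr, 1 as reported (*Bcl3*), was 0 with a prior without a trend and 0 with only the libraries compared, and 0 to 1 when each library was left out. The adjusted p of that *Bcl3* change ran from 0.0187 to 0.151 over the alternatives, 0.0752 with a prior without a trend and 0.0801 with only the libraries compared. The cause was not tested. The *Nfkbid* change at 8 hr against 0 hr passed with only the libraries compared (adjusted p = 0.0324) and without S513A at 0 hr replicate 1 or either S513A library at 4 hr, and its adjusted p ran from 0.0324 to 0.249. None of the 10 genes was called between genotypes, or in an interaction, under any alternative run.

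Signs turned only for changes that were not called. The log2 change of *Tnip2* at 8 hr was -0.0154 under median-ratio scaling and -0.0696 under quantile normalization, and -0.0364 to 0.0503 when each library was left out, and at 4 hr it was -0.127 to 0.00144. The mean genotype difference of *Nfkbiz* was -0.0168 under quantile normalization and -0.0383 to 0.0870 when each library was left out, and for *Nfkbid*, *Tnip2* and *Tnip3* the latter ranges were -0.117 to 0.0153, -0.0620 to 0.0237 and -0.0344 to 0.139. These scalings moved the median of all genes by less than 0.1. Single genes moved further over the 20 alternatives, without losing the call. The log2 change of *Tnfaip3* at 4 hr, 2.18 as reported, ran from 1.80 to 2.23. That of *Tnip1* (2.49) ran from 2.18 to 2.53, and that of *Nfkbia* (2.84) from 2.54 to 2.88. When each library was left out, the lowest values of these 3 genes were 2.12, 2.46 and 2.79.

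Libraries of the same number did not deviate together in every pair of groups: the correlation across genes of replicate differences was -0.36 to 0.76 within a genotype and -0.74 to 0.36 at a time. The value of 0.76 was that of S513A at 4 and 8 hr, and -0.74 that of WT and S513A at 4 hr. With a replicate block, 9 genes were higher at 4 hr and 8 at 8 hr, and no call changed. For changes with LPS and interactions the block was set within each genotype, and for genotype differences it was shared by both genotypes. Either form shifts libraries of a number alike at every time, so it cannot take up deviations of opposite sign between times. The shared form also cannot take up deviations of opposite sign between genotypes. With 2 libraries per group, small genotype differences could not be resolved.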
